A study of Rattus norvegicus with 9 samples.

Results

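Mitochondria exchange metabolites and take up proteins through a small set of channels in their outer membrane, and 10 genes that encode these channels, their receptors and the translocator protein TSPO are described here in rat disc cells. The genes were chosen by name: the rows of the deposited count table, out of 22324, whose symbol is Vdac1, Vdac2, Vdac3, Tomm20, Tomm22, Tomm40, Tomm40l, Samm50, Mtx1 or Tspo. All 10 rows were found, and all 10 passed the filter on low counts that 14956 genes passed. Messenger RNA of primary nucleus pulposus cells, from the gel-like centre of the intervertebral disc, was sequenced in 9 libraries of wild-type rat cells grown in high-glucose medium with 10% serum. NC (n = 3) is read here as the untreated control, since its title and the design text of the study set it against the other groups. SEN (n = 3) had been driven into senescence with doxorubicin, a DNA-damaging drug, at 200 nM for 24 h with 6 further days in fresh medium. BNPMT (n = 3) received the same induction together with an intervention named BNPMT, a name that the labels do not expand and whose dose and timing they do not give. The doxorubicin protocol is attached to every sample, NC included, and the age and sex of the rats are not stated there.

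The outer membrane is crossed by beta-barrel proteins. VDAC channels let ATP, ADP, ions and small metabolites through, and hexokinases dock on them. Nearly all proteins made in the cytosol for mitochondria enter by the TOM complex, in which TOMM20 and TOMM22 recognise the precursors and TOMM40 forms the pore. New beta-barrels, VDAC and TOMM40 among them, are inserted by the SAM complex, whose core is SAMM50, with metaxins at its cytosolic face. TSPO binds cholesterol and porphyrins in the same membrane, and it is best known from steroid-making cells and from activated glia and macrophages. The study's title names the stability of this membrane as an aim of the treatment, which is why these transcripts are of interest here.

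Total counts lay between 31206834 and 41971877 per library. Cdkn1a, the p21 gene that rises in senescence, was at 131 to 135 CPM (counts scaled to the library's total count) in NC, 1018 to 1109 CPM in SEN and 263 to 285 CPM in BNPMT. Of the markers of the labelled cell type, Acan (304 to 712 CPM) and Col2a1 (1880 to 6570 CPM) were abundant in all 9 libraries and differed between groups, whereas Tbxt, the notochord factor, did not pass 0.143 CPM and Krt18 did not pass 0.198 CPM. The 9 markers of this list in the table summed to 5100 to 5360 CPM in NC, 7180 to 7300 CPM in SEN and 2250 to 2480 CPM in BNPMT. Under TMM all 6 that were tested rose in SEN against NC and fell in BNPMT against SEN. The labels do not say that replicates were separate cultures, so the tests rest on a spread among libraries that may be technical only. Within their groups, SEN 1 and BNPMT 1 differed from the other libraries along transcript length: across genes, the rank correlation of a library's deviation with length was -0.415 in SEN 1 and 0.51 in BNPMT 1. Log2 changes are scaled by trimmed means of M-values (TMM) and come from edgeR's quasi-likelihood test over all tested genes, with a gene called at a Benjamini-Hochberg adjusted p below 0.05.

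RefSeq promoters of the rat build GRCr8 were at hand for 8 of the 10 genes, those of Vdac3 and Tspo not being in the table. They were searched on both strands, over the stretch before the gene start that is printed here, for GGGCGG (the letters of SP factors), CCGGAAG (ETS factors), ATGGCGG (a YY1 core), GCATGCG (an NRF1 core) and TGAGTCA (AP-1). The promoters of 5 genes are printed because they carry the contrasts described below: the paralogues Vdac1 and Vdac2, the receptor Tomm20, higher in SEN than in NC by raw CPM where the other 9 genes were lower, the SAM core Samm50, and Tomm40l, whose change was the largest of the 10 in both comparisons with SEN. Capitals mark the matches, the last base stands directly before the gene start, and each sequence reads along the strand of its gene.
Vdac1 (chr10:37032959-37033208, plus strand): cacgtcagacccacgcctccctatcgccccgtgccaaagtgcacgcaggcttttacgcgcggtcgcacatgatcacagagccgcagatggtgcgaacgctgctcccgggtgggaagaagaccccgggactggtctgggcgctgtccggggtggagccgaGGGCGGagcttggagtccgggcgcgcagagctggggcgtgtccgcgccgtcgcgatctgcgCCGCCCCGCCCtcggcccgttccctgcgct
Vdac2 (chr15:2525887-2526136, minus strand): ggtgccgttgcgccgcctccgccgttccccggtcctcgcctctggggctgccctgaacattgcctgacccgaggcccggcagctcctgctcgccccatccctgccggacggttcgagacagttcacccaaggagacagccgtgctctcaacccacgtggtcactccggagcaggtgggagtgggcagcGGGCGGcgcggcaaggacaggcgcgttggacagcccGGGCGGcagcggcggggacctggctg
Tomm20 (chr19:71832421-71832670, minus strand): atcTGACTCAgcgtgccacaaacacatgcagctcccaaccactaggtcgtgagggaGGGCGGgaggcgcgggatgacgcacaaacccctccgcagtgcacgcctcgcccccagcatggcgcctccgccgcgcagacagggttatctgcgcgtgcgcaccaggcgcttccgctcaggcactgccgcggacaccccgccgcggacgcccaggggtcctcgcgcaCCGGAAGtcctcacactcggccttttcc
Samm50 (chr7:117197210-117197459, plus strand): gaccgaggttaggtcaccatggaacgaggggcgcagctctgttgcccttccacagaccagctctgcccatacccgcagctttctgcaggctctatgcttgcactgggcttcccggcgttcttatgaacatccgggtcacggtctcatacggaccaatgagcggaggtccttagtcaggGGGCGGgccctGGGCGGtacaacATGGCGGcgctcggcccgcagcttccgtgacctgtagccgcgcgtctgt
Tomm40l (chr13:86174122-86174371, minus strand): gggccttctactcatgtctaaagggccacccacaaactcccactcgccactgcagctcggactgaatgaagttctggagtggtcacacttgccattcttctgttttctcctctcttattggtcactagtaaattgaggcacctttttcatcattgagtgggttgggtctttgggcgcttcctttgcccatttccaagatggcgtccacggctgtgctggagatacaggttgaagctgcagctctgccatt
GGGCGG stood in 5 of the 8 promoters, at 3 places in Vdac1 and 2 in Vdac2, against 30.5% of all 33469 promoters of that length. CCGGAAG stood in 2, Tomm20 and Tomm22, against 7.27% of all. ATGGCGG was found in 1, Samm50, against 2.47%, and TGAGTCA in 1, Tomm20, against 4.05%. GCATGCG, held by 2.93% of all promoters, was in none of the 8. Tomm40l and Mtx1 held none of the 5 strings. The GC content of the window was 71.2% in Vdac1 and 72.4% in Vdac2, compared with 50.8% in Tomm40l and a median of 51.2% over all promoters. It was 69.2% in Tomm20, 63.2% in Samm50, 56.4% in Mtx1, 52.8% in Tomm22 and 52.8% in Tomm40, which carries GGGCGG. A match of letters is no evidence of a bound factor, and promoters with and without a given string were found among the genes that fell in SEN.

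Compared per length, in FPKM (counts scaled by transcript length and by the library's total), Tomm20 was the most abundant of the 10 in every group. Its mean was 188 ± 16.5 FPKM in NC (SD, n = 3), 244 ± 27.2 in SEN libraries and 264 ± 25.4 in those of BNPMT. In NC it was followed by Vdac3 (136 ± 2.59), Vdac2 (103 ± 3.25), Tspo (100.3 ± 4.64), Vdac1 (69.0 ± 0.865), Tomm22 (52.0 ± 2.98), Tomm40 (44.5 ± 1.09), Samm50 (42.5 ± 1.67), Mtx1 (17.1 ± 0.550) and Tomm40l (10.5 ± 0.517). Libraries of Vdac2 and Tspo overlapped in NC, as did those of Tomm40 and Samm50, and the other neighbours in that order did not. The order differed in SEN: Samm50 (24.7 ± 2.22) stood above Tomm40 (18.9 ± 0.936) without overlap, as it did in BNPMT, and in the upper part Vdac2 (90.1 ± 3.96) came second, and its libraries overlapped those of Tspo (77.2 ± 8.20), which in turn overlapped those of Vdac3 (75.5 ± 2.73). In BNPMT Vdac3 (187 ± 12.1) was second again and overlapped Tspo (165 ± 16.7), and Vdac2 (126 ± 6.79) came below both. Tomm40l was last in each group, at the 65.1 percentile of tested genes in NC and the 39.07 percentile in SEN, whereas Tomm20 lay at the 97.77 percentile or above throughout.

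**Figure D1:**
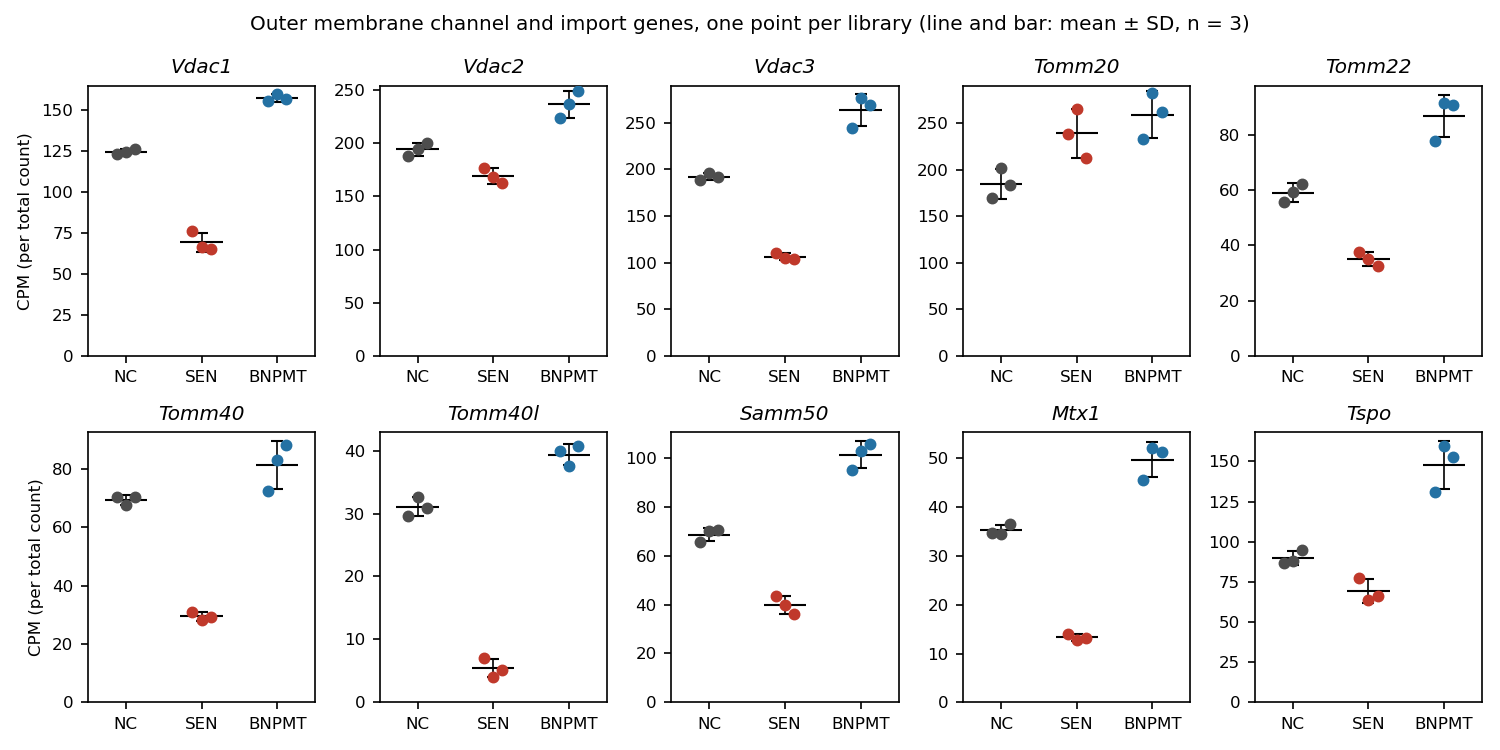
Levels in CPM (vertical axes, from 0) of the 10 genes in the 9 libraries, 1 point a library, with the mean and SD of each group (n = 3). SEN is the lowest group in 9 panels and not in that of Tomm20, whose SEN libraries (212 to 265 CPM) lie above NC (169 to 201 CPM).

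In senescent cells most of these genes were lower than in the control. Under TMM 7 of the 10 fell in SEN against NC, 2 rose and Tspo did not pass the test, while 38.5% of all tested genes were called lower and 37.6% higher. The median log2 change of the 10 was -0.36, against -0.01 over all tested genes. By raw CPM the SEN libraries lay wholly below the NC libraries in 9 genes and above them in 1, against 58.1% and 25.3% of all tested genes, and on that scale the median of all tested genes was itself -0.46. In whole tissue or culture RNA, fewer cells with a transcript and less of it per cell cannot be told apart. The smooth muscle markers Acta2, Myh11, Tagln, Cnn1 and Des, of which 4 of 5 fell in SEN against NC under TMM and Des rose, summed to 4460 to 4500 CPM in NC, 1330 to 1500 CPM in SEN and 2550 to 2800 CPM in BNPMT, whereas the nucleus pulposus markers given above went the other way in SEN against NC. The part of either list in these results was not tested.

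Vdac1 encodes the channel isoform most studied as a gate of apoptosis and a docking site of hexokinase. It read 123, 124 and 126 CPM in the NC libraries, 76.0, 66.5 and 65.2 CPM in SEN, and 156, 159.7 and 156 CPM in BNPMT. The 3 groups did not overlap, SEN being lowest and BNPMT highest. Vdac1 fell in SEN against NC by a log2 change of -0.39 ± 0.06 (SE, adjusted p = 6.82e-05), rose in BNPMT against SEN by 0.68 ± 0.06 (adjusted p = 2.54e-07), and was higher in BNPMT than in NC by 0.29 ± 0.06 (adjusted p = 0.00175).

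Vdac3 encodes an isoform known for its many cysteines. Its libraries read 189, 196 and 192 CPM in NC, 111, 105 and 103 CPM in SEN, and 244, 277 and 269 CPM in BNPMT, again with no overlap between groups. Its log2 changes were close to those of Vdac1: -0.40 ± 0.06 in SEN against NC (adjusted p = 4.52e-05), 0.80 ± 0.06 in BNPMT against SEN (adjusted p = 3.48e-08) and 0.40 ± 0.06 in BNPMT against NC (adjusted p = 0.000131).

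Vdac2, whose product also holds the apoptosis effector BAK at the membrane, differed less between groups by CPM. It read 188, 195 and 200.3 CPM in NC, 177, 168 and 162 CPM in SEN, and 224, 237 and 249.4 CPM in BNPMT. Its direction in SEN depended on the scale: the log2 change was 0.25 ± 0.06 under TMM (adjusted p = 0.00152), -0.20 on total counts alone (adjusted p = 0.00525) and 0.01 with a length correction (adjusted p = 0.796). That correction removed each library's trend along transcript length, the level of the trend included, so it also shifted the scale between libraries. The same correction moved the median of all tested genes to -0.25 in SEN against NC and to 0.26 in BNPMT against SEN, about as far as it moved Vdac2 in SEN against NC. BNPMT against SEN gave -0.02 ± 0.06 under TMM (95% interval -0.15 to 0.11, adjusted p = 0.786) and, when only total counts were used, 0.48 (adjusted p = 2.38e-06). Against NC the BNPMT libraries were higher by 0.24 ± 0.06 (adjusted p = 0.00464), a call that ended after length correction (0.06, adjusted p = 0.293).

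Reads of the VDAC genes carry an uncertainty of placement. By symbols made of the gene symbol and a -ps suffix, RefSeq names 15 rat pseudogenes of Vdac1, 5 of Vdac2, 1 of Vdac3 and 2 of Tomm20. It names none of the remaining 6 genes in this form, and pseudogenes under other symbols were not counted. The sources used here do not say how reads that fit several places were counted. The 2 rows of the count table described as a voltage-dependent anion-selective channel protein under other symbols held 1 count each over all 9 libraries.

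Because FPKM is per length, the make-up of the VDAC pool could be followed within each library, free of the scaling between libraries. Vdac2 made up 33.1%, 33.3% and 34.1% of summed VDAC FPKM in the NC libraries, 43.9%, 44.5% and 44.1% in those of SEN, and 31.5%, 30.7% and 32.4% in those of BNPMT. Its share was thus highest in every SEN library, by 10.7 percentage points over NC on average. Vdac3 held 44.1% ± 0.572 (SD, n = 3) of the NC pool, 37.0% ± 0.446 of that in SEN and 46.6% ± 1.03 of that in BNPMT, and Vdac1 held 22.4% ± 0.252, 18.8% ± 0.688 and 21.9% ± 0.864. The two-sided exact permutation test gave p = 0.1 for all 3 shares in SEN against NC and in BNPMT against SEN, the smallest it allows with 3 against 3, so no share could pass 0.05. For BNPMT against NC the libraries overlapped for Vdac1 (exact p = 0.4) and did not for Vdac2 (-1.98 points) and Vdac3 (2.497 points, exact p = 0.1 for both). The shares carry no length correction, and the transcripts differ in length, from 1411 bases in Vdac3 to 1879 in Vdac2. In BNPMT against NC the log2 changes of Vdac3 and Vdac2 were 0.40 and 0.24 under TMM. They were 0.13 and 0.06 after length correction. On a scale set by total counts, where the median of all tested genes was -0.46 in SEN against NC, the pool itself had 309 ± 5.68 FPKM in NC libraries, 204 ± 9.87 FPKM in SEN libraries and 399.8 ± 18.6 FPKM in BNPMT libraries.

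**Figure D2:**
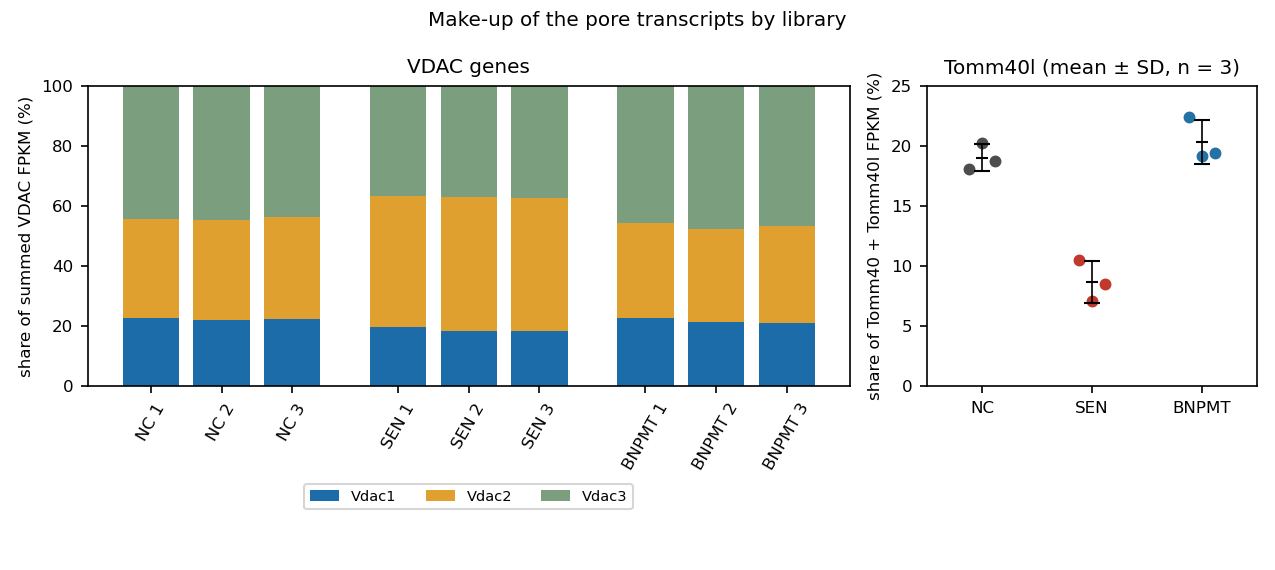
Left, share (%) of each VDAC gene in the summed VDAC FPKM of each of the 9 libraries. Right, share (%) of Tomm40l in the summed FPKM of Tomm40 and Tomm40l, 1 point a library with mean and SD (n = 3); the Vdac2 band is widest and the Tomm40l share lowest in the 3 SEN libraries.

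Tomm20, the receptor that first meets precursors with a presequence, was the 1 gene of the 10 whose CPM was higher in SEN than in NC, whereas under TMM Vdac2 was called higher as well. Its libraries read 169, 201 and 183 CPM in NC, 238, 265 and 212 CPM in SEN, and 233, 282 and 262 CPM in BNPMT. Both SEN and BNPMT lay above NC, and they overlapped each other. Tomm20 rose in SEN against NC by 0.82 ± 0.09 (adjusted p = 2.45e-06), by 0.37 when only total counts were used (adjusted p = 0.00197) and by 0.39 after length correction (adjusted p = 0.000224). In BNPMT against SEN it fell by 0.38 on the log2 scale under TMM (SE 0.09, adjusted p = 0.00187) and was -0.32 after length correction, but it read 0.12 when only total counts were used (adjusted p = 0.24).

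Tomm22, the central receptor that also holds the TOM complex together, followed Vdac1 and Vdac3 more closely than Vdac2 or Tomm20. It read 55.5, 59.2 and 62.2 CPM in NC, 37.5, 34.9 and 32.7 CPM in SEN, and 77.8, 91.6 and 90.8 CPM in BNPMT. No group overlapped another. Its log2 changes were -0.30 ± 0.08 in SEN against NC (adjusted p = 0.0045), 0.81 ± 0.08 in BNPMT against SEN (adjusted p = 5.96e-07) and 0.51 ± 0.08 in BNPMT against NC (adjusted p = 0.000173).

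The general import pore gene Tomm40 read 70.4, 67.5 and 70.4 CPM in NC, 31.1, 28.2 and 29.2 CPM in SEN, and 72.4, 83.1 and 88.3 CPM in BNPMT. SEN was far below both other groups, whose libraries stood next to each other. Tomm40 fell by 0.78 in SEN against NC (SE 0.08, adjusted p = 5.84e-07) and rose by 0.96 ± 0.08 in BNPMT against SEN (adjusted p = 5.97e-08). The difference between BNPMT and NC did not pass the test (log2 change 0.18 ± 0.08, 95% interval 0.02 to 0.34, adjusted p = 0.0624). It was called without BNPMT 1 (0.26, adjusted p = 0.00144) and when only total counts were used (0.23, adjusted p = 0.0175), and its sign turned after length correction (-0.07, adjusted p = 0.32). The ratio of Tomm20 to Tomm40 FPKM, a pair chosen after the values were seen, lay between 3.83 and 4.76 in NC libraries, between 11.6 and 15.0 in SEN libraries and between 4.73 and 5.41 in BNPMT libraries.

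Tomm40l, a paralogue of the pore gene, had the largest log2 change of the 10 in SEN against NC and in BNPMT against SEN, but not in BNPMT against NC. It read 29.6, 32.7 and 30.9 CPM in NC, 6.98, 4.10 and 5.17 CPM in SEN, and 39.9, 37.5 and 40.7 CPM in BNPMT. It fell in SEN against NC by 2.05 on the log2 scale (SE 0.13, adjusted p = 6.80e-09), and its mean CPM in SEN was 0.174 times that in NC. In BNPMT against SEN it rose by 2.34 ± 0.13 (adjusted p = 1.42e-09). Its share in the summed FPKM of Tomm40 and Tomm40l ranged from 18.1% to 20.3% over the NC libraries, from 7.08% to 10.5% over those of SEN and from 19.1% to 22.4% over those of BNPMT (exact permutation p = 0.1 for SEN against either group, 0.4 for BNPMT against NC). Against NC the BNPMT libraries were called higher at 0.29 ± 0.11 (adjusted p = 0.0484), which lay at the threshold: the call ended without any one of NC 1, NC 2, NC 3, SEN 3, BNPMT 2 and BNPMT 3 (adjusted p between 0.0621 and 0.15). The range of its adjusted p over 21 alternatives was 0.00251 to 0.15, with 0.0549 in DESeq2.

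Samm50, the beta-barrel core of the SAM complex, read 65.5, 69.9 and 70.3 CPM in NC, 43.3, 39.9 and 36.1 CPM in SEN, and 94.97, 102.8 and 105.8 CPM in BNPMT. The groups did not overlap. The log2 changes were -0.33 ± 0.07 in SEN against NC (adjusted p = 0.00112), 0.84 ± 0.07 in BNPMT against SEN (adjusted p = 1.47e-07) and 0.51 ± 0.07 in BNPMT against NC (adjusted p = 8.39e-05). Over the 9 libraries its centred log2 CPM differed from that of Tomm22 by a root mean square of 0.0408, the closest pair among the 10, and from that of Vdac3 by 0.0658. These patterns share libraries and depth and are given as a description.

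Mtx1, which encodes metaxin 1 of the SAM complex, read 34.7, 34.5 and 36.5 CPM in NC, 14.1, 12.8 and 13.1 CPM in SEN, and 45.5, 52.1 and 51.2 CPM in BNPMT. It fell further in SEN than Samm50, by 0.95 on the log2 scale (SE 0.08, adjusted p = 7.90e-08) where Samm50 fell by 0.33, a difference between genes that was not tested. It rose in BNPMT against SEN by 1.39 ± 0.08 (adjusted p = 1.17e-09), and was 0.44 ± 0.07 higher in BNPMT than in NC (adjusted p = 0.000237).

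Tspo, the cholesterol-binding protein of the same membrane, read 86.7, 88.2 and 94.5 CPM in NC, 77.6, 63.9 and 66.1 CPM in SEN, and 131, 159.8 and 152.9 CPM in BNPMT. By CPM SEN lay below NC and BNPMT above both. The SEN difference depended on the scale and on SEN 1, the highest SEN library: the log2 change was 0.08 ± 0.09 under TMM (95% interval -0.12 to 0.27, adjusted p = 0.45), -0.03 without SEN 1 (adjusted p = 0.787), -0.38 with total counts (adjusted p = 0.00112) and -0.39 after length correction (adjusted p = 9.60e-07). On the last pair of scales the median of all tested genes was itself -0.46 and -0.25. In BNPMT Tspo rose by 0.59 ± 0.09 over SEN (adjusted p = 3.19e-05) and by 0.67 ± 0.09 over NC (adjusted p = 4.83e-05), and the latter was 0.28 after length correction (adjusted p = 0.000145). Macrophages and glia are known for Tspo. Of 10 macrophage and leukocyte markers 7 were in the table and summed to 11.3 to 12.9 CPM in NC, 31.2 to 34.4 CPM in SEN and 16.4 to 18.4 CPM in BNPMT, with Adgre1 at no more than 0.029 CPM and C1qa at no more than 0.0521 CPM. Itgam was at 0 in NC and BNPMT and at 3.96 to 3.99 CPM in SEN, and Lyz2 rose in SEN against NC by 3.17 on the log2 scale. Cd68, a lysosomal marker, held 21.1 to 24.6 CPM of the sum in SEN, and Cd14 held 15.8 to 17.9 CPM of it in BNPMT. Of the 4 tested markers 3 rose in SEN against NC under TMM and 1, Cd14, fell. Cd14 went from a mean of 11.4 CPM in NC to 4.04 CPM in SEN (log2 change -1.04 ± 0.10, edgeR adjusted p = 2.81e-07). The part of such cells in the Tspo result was not tested.

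BNPMT against SEN showed the reverse picture of the senescent cells, from libraries of SEN that both comparisons share. Of the 10 genes 8 rose, Tomm20 fell and Vdac2 was not called, beside 40.7% of all tested genes called higher and 39.9% called lower. The median log2 change was 0.80, against 0.02 over all tested genes. By CPM the BNPMT libraries lay wholly above those of SEN in 9 genes and below them in 0, against 57.3% and 25.2% of all tested genes, and overlapped in Tomm20.

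Against the control, BNPMT cells held more of these transcripts. By CPM all 10 genes were higher in every BNPMT library than in any NC library, which held for 35.3% of all tested genes, while 26.4% were lower in every BNPMT library. Under TMM 9 of the 10 were called higher than in NC and none lower, beside 26.3% and 26.5% of all tested genes, and Tomm40 was not called. DESeq2 called 8 higher and 0 lower, beside 3785 higher and 4034 lower of the 16264 genes that it tested. All 10 log2 changes were above 0 in edgeR, so no threshold could call any of them lower. They ran from 0.18 in Tomm40 to 0.67 in Tspo, with a median of 0.42.

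Transcript length went with that difference. Across the 14956 tested genes the rank correlation of the BNPMT against NC change with transcript length was -0.483. It was -0.163 for BNPMT against SEN and -0.0343 for SEN against NC. The transcripts of the 10 genes measured 896 bases (Tspo), 980 (Tomm20), 1134 (Tomm22), 1411 (Vdac3), 1561 (Tomm40), 1611 (Samm50), 1802 (Vdac1), 1879 (Vdac2), 2062 (Mtx1) and 2976 (Tomm40l). Tested genes were cut into 10 groups of equal number by length. The shortest group, up to 1201 bases, had a median log2 change of 0.477 in BNPMT against NC, beside 0.67 for Tspo, 0.51 for Tomm22 and 0.44 for Tomm20. In the group of 1202 to 1705 bases the median was 0.31, beside 0.51 for Samm50, 0.40 for Vdac3 and 0.18 for Tomm40. In the group of 1705 to 2191 bases it was 0.196, beside 0.44 for Mtx1, 0.29 for Vdac1 and 0.24 for Vdac2. Tomm40l, at the 44.28 percentile of length, was 0.29, beside a median of 0.0444 in its group. The other comparisons also moved with length. In SEN against NC the median was 0.237 in the shortest group, -0.133 in that of 3329 to 4026 bases and 0.0679 in the longest. In BNPMT against SEN the medians of the 3 shortest groups were 0.208, 0.317 and 0.22, and that of the longest was -0.498. After length correction Vdac3, Tomm22, Tomm40l, Samm50, Mtx1 and Tspo stayed called higher in BNPMT than in NC, at 0.13 to 0.29, and 0 were called lower, while 23.4% of all tested genes were called higher and 22.6% lower. The calls of Vdac1 (0.09, adjusted p = 0.106), Vdac2 and Tomm20 (0.07, adjusted p = 0.485) ended there.

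**Figure D3:**
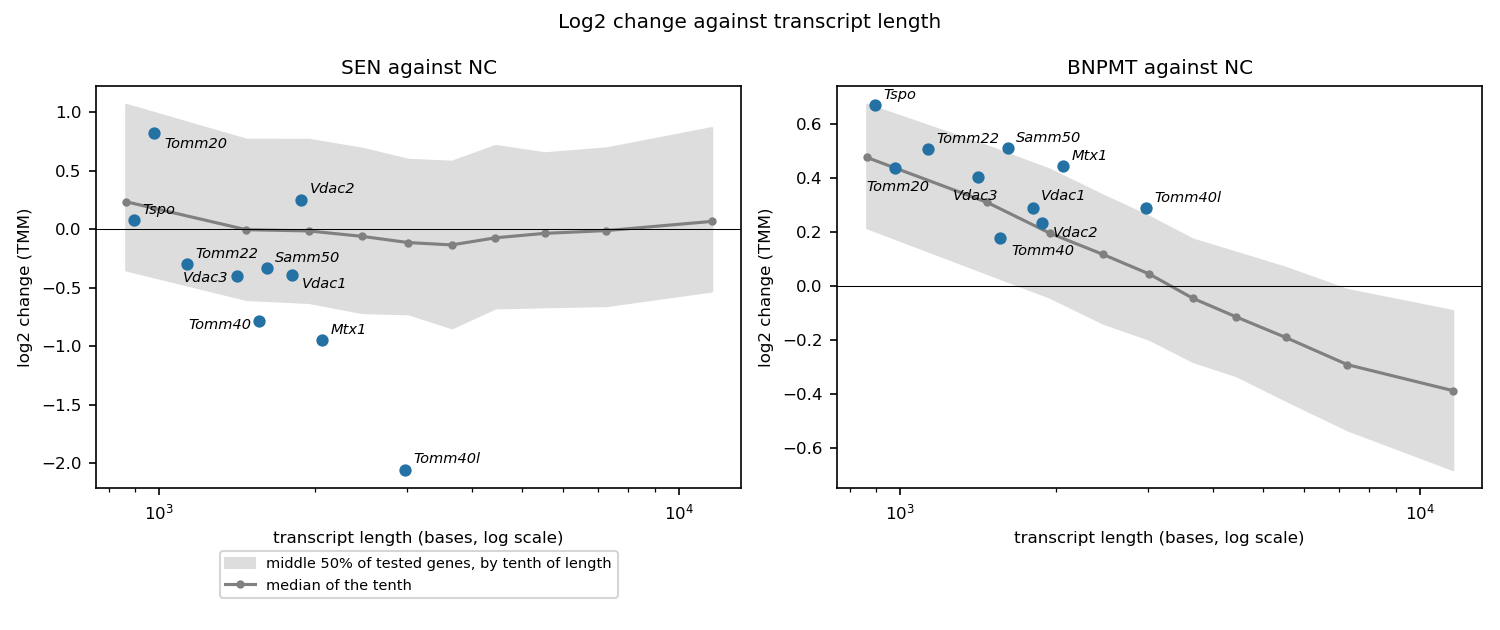
Log2 change under TMM (vertical axis) against transcript length in bases (log axis) for SEN against NC and BNPMT against NC, with the median and the middle 50% of all tested genes in 10 groups of equal number by length. For BNPMT against NC the median goes from 0.477 in the shortest group to -0.388 in the longest, and 9 of the 10 genes lie in the 3 shortest groups.

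The size of the SEN changes moved with the scale between libraries. With total counts alone the median of all tested genes was -0.46 in SEN against NC and 0.52 in BNPMT against SEN, and 56.9% of all tested genes were called lower in SEN and 24.5% higher. Of the 10 genes 9 were then called lower in SEN and 1 higher, at -0.85 for Vdac1, -0.85 for Vdac3, -0.75 for Tomm22, -1.23 for Tomm40, -2.51 for Tomm40l, -0.78 for Samm50 and -1.40 for Mtx1, beside the shift of -0.46. After length correction, with a median of all tested genes of -0.25, 8 were lower and 1 higher, beside 49.6% and 31.4% of all tested genes. In BNPMT against SEN, total counts gave 9 higher and 0 lower (57.3% and 25.8% of all tested genes), and length correction gave 8 and 1 (50.1% and 32.8%). In BNPMT against NC, total counts gave 10 higher and 0 lower (30.2% and 22.5%). Calls that kept their direction under TMM, total counts and the length correction were those of 8 genes in SEN against NC (Vdac1, Vdac3, Tomm20, Tomm22, Tomm40, Tomm40l, Samm50, Mtx1), of 8 in BNPMT against SEN and of 6 in BNPMT against NC. The share of all tested genes that kept a call on all 3 scales was not computed. These counts therefore describe the 10 genes and are not set against other genes.

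**Figure D4:**
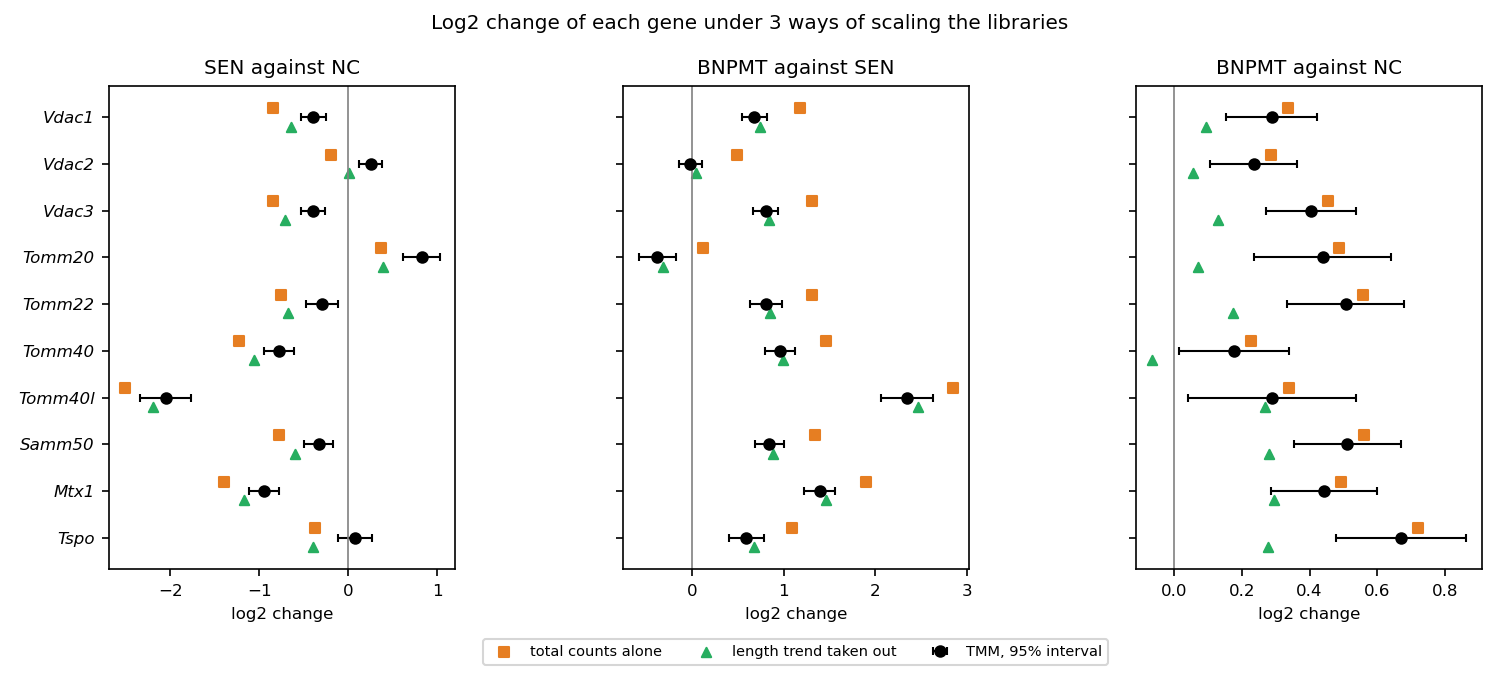
Log2 change (horizontal axes) of each of the 10 genes in the 3 comparisons, under TMM with its 95% interval, with total counts alone and after length correction. Vdac2 in SEN against NC lies at 0.25, -0.20 and 0.01 on these scales, and Tomm40l lies below -2 on each.

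The counts that follow stand beside all tested genes, of which 38.5% fell and 37.6% rose in SEN against NC under TMM, 56.9% and 24.5% with total counts, and 49.6% and 31.4% after length correction. In BNPMT against NC 26.3% of them rose and 26.5% fell under TMM, and 23.4% and 22.6% after length correction. Of the other genes of the outer membrane's import and insertion machinery, 9 were measured, and 5 of them fell and 2 rose in SEN against NC under TMM (7 fell and none rose with total counts, 8 and 1 after length correction), with a median of -0.15. Dnajc11, whose product binds the SAM complex, fell from 53.7 ± 1.22 to 11.6 ± 0.670 CPM (-1.76 ± 0.06 on the log2 scale, adjusted p = 1.37e-11). Mtx2, the partner of metaxin 1, fell from 32.8 ± 0.401 to 14.4 ± 1.07 CPM, Mtx3 from 19.7 ± 1.29 to 8.27 ± 1.17 CPM, and the small TOM subunit gene Tomm5 from 29.3 ± 1.09 to 11.6 ± 0.728 CPM. In BNPMT against NC 6 of the 9 rose, 1 fell and 2 were not called (5 higher and none lower after length correction). Tomm7, another small TOM subunit gene, rose from 35.6 ± 1.71 to 66.2 ± 8.58 CPM (0.84 ± 0.11, and 0.27 after length correction).

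Behind the TOM complex, the small TIM chaperones ferry hydrophobic precursors to the SAM complex and to the carrier translocase. Of 9 such genes 7 fell and 1 rose in SEN against NC (38.5% and 37.6% of all tested genes), with a median of -0.49. Agk, a lipid kinase that is also a subunit of the carrier translocase, fell from 19.5 ± 1.72 to 5.58 ± 1.14 CPM, whereas Timm8a1 rose by 0.61 ± 0.07. In BNPMT against NC 7 rose and 2 were not called, with 3 called after length correction. Timm13 rose there from a mean of 37.8 to 75.8 CPM (log2 change 0.95 ± 0.10).

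Of 16 genes of the presequence translocase, its motor and the processing enzymes, 9 fell and 2 rose in SEN against NC under TMM, with a median of -0.25, and 14 fell and 1 rose with total counts, where 56.9% of all tested genes fell. Pmpca, a subunit of the peptidase that cuts presequences, fell from 69.2 ± 2.27 to 22.5 ± 2.18 CPM, and the channel subunit gene Timm17a fell from 44.8 ± 1.92 to 14.2 ± 1.78 CPM. Hspa9, the matrix chaperone that pulls precursors in, moved against them: it rose from 591 ± 11.3 to 735 ± 14.1 CPM in SEN (0.77 ± 0.05, adjusted p = 3.37e-09) and was lower in BNPMT than in NC, at 448 ± 13.4 CPM (-0.45 ± 0.05, adjusted p = 6.65e-06). In BNPMT against NC 10 of the 16 rose and 1 fell, or 6 and 3 after length correction. Of 7 genes of the cristae organizing complex, which is tied to SAM across the membranes, 4 fell and 2 rose in SEN (6 and none after length correction), and all 7 rose in BNPMT against NC (4 after length correction). Immt, its scaffold gene, fell from 133 ± 5.69 to 72.5 ± 2.87 CPM in SEN.

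**Figure D5:**
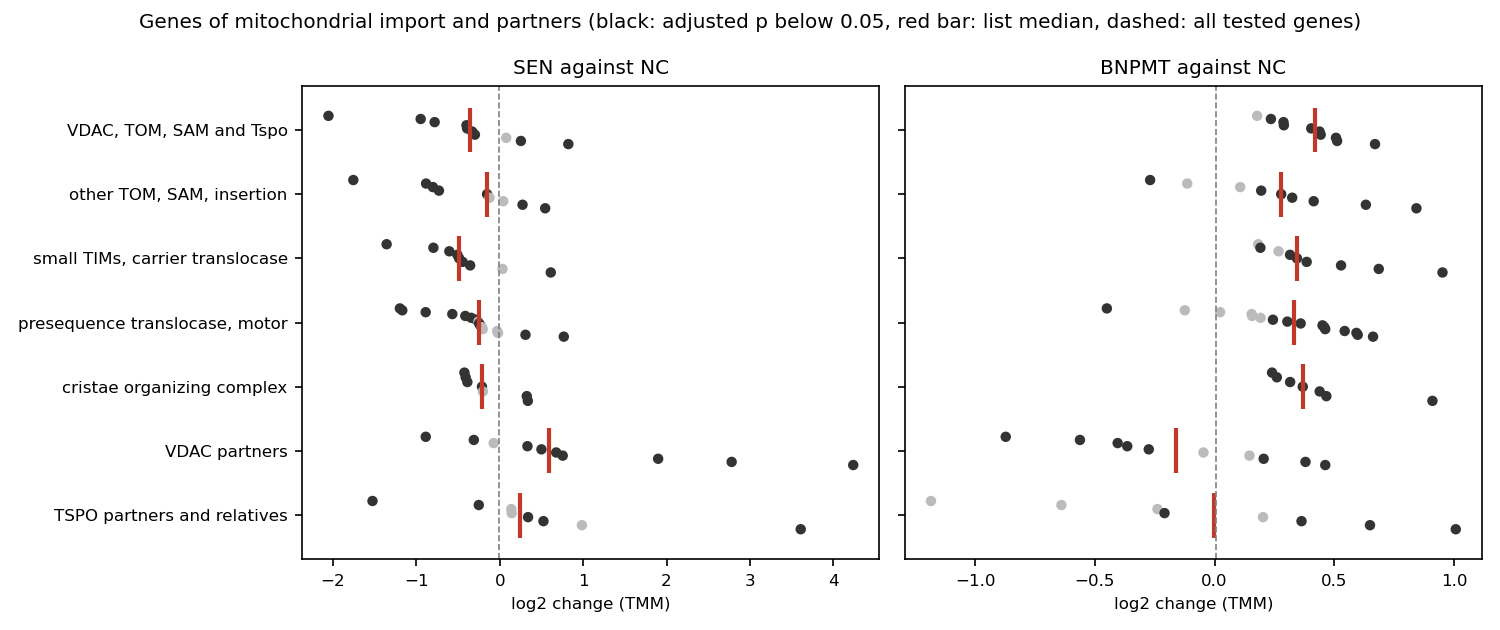
Log2 change under TMM (horizontal axes) of each measured gene of the 10 and of 6 fixed lists, in SEN against NC and BNPMT against NC, 1 point a gene. List medians run from -0.49 (small TIM chaperones and carrier translocase) to 0.59 (VDAC partners) in SEN against NC.

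Of 10 tested genes whose products dock on VDAC or act beside it, 7 rose and 2, Hk1 and the calcium channel gene Itpr2, fell in SEN against NC (37.6% and 38.5% of all tested genes), with a median of 0.59, and 5 rose and 3 fell with total counts. Hk2, the inducible hexokinase that binds VDAC, rose from 18.4 ± 1.23 to 254 ± 19.0 CPM (4.24 ± 0.12 on the log2 scale, adjusted p = 1.44e-12), and Ppif, the cyclophilin of the permeability transition, rose from 8.12 ± 0.664 to 40.7 ± 2.26 CPM. Hk1, the constitutive hexokinase, fell from 176 ± 4.59 to 104 ± 2.17 CPM (-0.31 ± 0.05, adjusted p = 6.28e-05). In BNPMT Hk2 was at 14.8 ± 3.35 CPM, Ppif at 10.9 ± 0.286 CPM and Hk1 at 210.3 ± 1.62 CPM. Against NC 3 of the 10 rose and 5 fell in BNPMT under TMM, beside 26.3% and 26.5% of all tested genes. After length correction 3 rose and 4 fell. The log2 change there was -0.87 ± 0.09 for Itpr1 and -0.41 ± 0.05 for Hspa5 under TMM. Hspa5 had risen in SEN against NC by 1.90 ± 0.05. The ADP/ATP carrier gene Slc25a5 rose in SEN by 0.75 ± 0.06, while the channel gene Vdac1 fell.

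Among 8 measured partners and relatives of TSPO 3 rose, 2 fell and 3 were not called in SEN against NC, a share of higher genes near the 37.6% of all tested genes, and with total counts 1 rose and 2 fell. Acbd3, which encodes a TSPO-binding Golgi protein, fell from 93.3 ± 3.68 to 23.6 ± 1.27 CPM and stood at 83.5 ± 5.36 CPM in BNPMT. Dbi, the gene of the peptide ligand of TSPO, went with Tspo in BNPMT, from 122 ± 5.00 CPM in NC to 254 ± 37.3 CPM (a log2 rise of 1.01 ± 0.10, adjusted p = 4.49e-06, and of 0.51 after length correction). Among genes of steroid synthesis Star, which delivers cholesterol to that pathway, rose from 0.170 ± 0.0233 CPM in NC to a mean of 1.56 ± 0.389 CPM in SEN (3.61 ± 0.44 on the log2 scale, adjusted p = 4.46e-06). Cyp11a1, which makes pregnenolone, did not pass 0.622 CPM in any library.

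The genes whose patterns over the 9 libraries were most like that of Vdac1, by the root mean square difference of centred log2 CPM among 13403 named genes, were Cmtm3 (0.0309), Snrpa1 (0.0374), Cct8 (0.0455), Ciao2b (0.0461) and Sae1 (0.0465). Cct8, a subunit gene of the cytosolic chaperonin, was at 238 CPM in NC, 133 CPM in SEN and 295 CPM in BNPMT. Those most like Tspo were Eci1 (0.04), Cox6c (0.0412), Arpc3 (0.0415), Ufc1 (0.046) and Gss (0.0463). Eci1, an enzyme of mitochondrial fatty acid oxidation, was at 43.3, 32.8 and 71.6 CPM, and Cox6c, a subunit gene of cytochrome oxidase, at 90.4, 72.2 and 152.8 CPM in NC, SEN and BNPMT. The likeness is over 3 groups of 3 libraries and is a description.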

How the data were processed

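RNA of 9 libraries was extracted with TRIzol and made into libraries with the VAHTS Universal V6 kit, per the labels' protocols. Per the submitters' processing notes, mRatBN7.2 was the build, and the tools were HTSeq, HISAT2 and fastp, with no versions. The sources used here do not give the annotation, the strandedness or the treatment of reads with several placements. The authors deposited whole-number counts per gene and FPKM values, and each FPKM equals count over length and library total, which gave the transcript lengths. The deposited single-sample FPKM files hold the same values (largest difference 1.02e-07).

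CPM are per total count. Genes passing filterByExpr (14956 of 22324) went into edgeR 4.0.16 (R 4.3.3), with TMM factors and a quasi-likelihood test fitted over 3 groups of the 9 libraries, Benjamini-Hochberg adjustment over all tested genes, threshold 0.05. SE is the log2 change over the root of F. No libraries were duplicates (chi-square per degree of freedom 3.41 to 31.6 within groups). Alternatives included DESeq2 1.42.0 and limma 3.58.1 on log2(FPKM + 1) and log2(FPKM + 0.1), whose constants understate changes of low genes. Another was the length correction. It removes from each library a loess curve (span 0.5) of its values on transcript length, the curve's level included. Shares were compared by two-sided exact permutation tests. The floor of 3 counts is worth 0.0715 to 0.0961 CPM and covers counting error only.

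Named were all 10 genes, from each fixed list the called genes with the smallest adjusted p (4 in SEN against NC, 2 in BNPMT against NC), the 5 genes most like Vdac1 and the 5 most like Tspo. Of these only some are printed, and Hk1, Itpr2 and Cyp11a1 were added after their values were seen. The members, lists and motifs were chosen with earlier results of these data known, and patterns already seen there are no independent support.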

Additional observations from a re-analysis of the deposited data

How the results depend on the processing

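Of 630 recomputed log2 changes of the 10 genes (21 alternatives, 3 comparisons), 590 kept direction and side of the threshold. With the sign kept, 14 lost the call and 5 gained it. The remaining 21 changed sign, with or without a change of call. The count of genes higher in SEN against NC was 1 and not 2 with total counts alone, after length correction and on both FPKM scales. The count lower in BNPMT against SEN was 0 and not 1 with total counts and on both FPKM scales. On log2(FPKM + 1) and log2(FPKM + 0.1), 3555 and 3649 of all 14956 tested genes were called higher in SEN against NC. In BNPMT against SEN 3695 and 3800 were called lower on these scales. In BNPMT against NC the count of higher genes lay between 6 (after length correction) and 10.

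Vdac2 in SEN against NC turned to -0.20 with total counts and to -0.20 on log2(FPKM + 1) and log2(FPKM + 0.1). In BNPMT against SEN, where it was not called under TMM, it turned to 0.48 with total counts, 0.48 on both FPKM scales, 0.039 without the filter on low counts, 0.043 after length correction and 0.072 without SEN 1 and BNPMT 1, and leaving out 1 library gave -0.048 to 0.038, above 0 without SEN 1 (0.027) and without BNPMT 1. Tspo in SEN against NC turned to -0.38 with total counts, -0.39 after length correction, -0.38 on both FPKM scales, and -0.028 without SEN 1 and BNPMT 1, and leaving out 1 library gave -0.027 (without SEN 1) to 0.127. Tomm20 in BNPMT against SEN turned to 0.12 with total counts and on both FPKM scales, and Tomm40 in BNPMT against NC to -0.066 after length correction. Beyond the scale itself the cause was not tested.

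The replicate numbers in the titles showed no sign of pairing: same-numbered libraries' deviations correlated at -0.24 to 0.0581. These deviations also hold the length trends of SEN 1 and BNPMT 1, so the check cannot exclude pairing. With the replicate block 2 genes were higher and 7 lower in SEN against NC, and 8 and 1 in BNPMT against SEN. In BNPMT against NC 8 were higher and 0 lower, and Tomm40l lost its call (0.29, adjusted p = 0.0823). Of all 14956 tested genes, 5517 were higher and 5626 lower in SEN against NC with this block. In BNPMT against SEN these counts were 5973 and 5869, and in BNPMT against NC 3643 and 3705. Leaving out 1 library, the SEN against NC counts stayed at 2 and 7, those of BNPMT against SEN at 8 and 1, and those of BNPMT against NC at 8 to 10 higher. Of the 15122 to 15398 genes then tested, 5493 to 5915 were higher and 5575 to 6013 lower in SEN against NC. In BNPMT against SEN 5922 to 6138 were higher and 5834 to 6161 lower. In BNPMT against NC 3232 to 4231 were higher and 3305 to 4294 lower. The shares of VDAC genes and of Tomm40l kept their direction without any one library and by counts, at 10.5 to 11.0 points for Vdac2 in SEN over NC. With 3 libraries a group the exact permutation tests of shares cannot go below p = 0.1.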

Other observations

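Tomm20l, a paralogue of the receptor gene Tomm20 that was singled out after its values were seen, was a low transcript with a pattern opposite to that of Tomm40l. It held 11, 16 and 10 counts in NC (0.239 to 0.395 CPM), 114, 152 and 106 in SEN (2.97 to 4.87 CPM) and 10, 7 and 14 in BNPMT (0.199 to 0.334 CPM). It rose in SEN against NC by 3.94 ± 0.30 on the log2 scale (edgeR, adjusted p = 3.89e-08) and fell by 4.27 in BNPMT against SEN (adjusted p = 1.86e-08). The BNPMT and NC libraries overlapped (-0.33 ± 0.41, adjusted p = 0.524). Next to Tomm20 at 169 to 282 CPM, these levels are small.

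Summed over the 10 genes, the channel and import transcripts made up 1012 to 1068 CPM in NC, 726 to 813 CPM in SEN and 1318 to 1483 CPM in BNPMT. These sums rest on total counts, a scale on which the log2 changes over the whole set of tested genes had medians of -0.46 in SEN against NC and 0.52 in BNPMT against SEN.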
